A study of Mus musculus with 18 samples.

Results

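Jag1, Notch1, Notch2, Hes1, Hey1 and Rbpj, 6 genes of the Notch pathway, were described across 18 RNA-seq libraries of mouse bone marrow-derived macrophages (BMDMs). The 6 genes are those of the 50600 gene IDs in the deposited count table that carry these symbols. They were chosen because Jag1 was higher with defactinib in IRF5 knockout (KO) cells, so the values of all 6 genes in that contrast, and of Jag1 wherever LPS-stimulated IRF5 KO libraries enter, are given as a description without a test.

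The cells, from WT or IRF5 KO bone marrow, were grown for 8 days with recombinant GM-CSF. The study asked how defactinib, an inhibitor of the kinase PYK2, acts on the response to LPS with and without the transcription factor IRF5. In each genotype, 3 libraries came from unstimulated cells, 3 from cells pretreated with DMSO vehicle for 1 h and then given LPS at 100 ng/ml for 2 h, and 3 from cells pretreated with 3.5 µM defactinib in place of DMSO and given the same LPS. The labels give DMSO as the treatment of the unstimulated cells, while the columns of the count table mark these libraries as UT. No library held defactinib without LPS, so an effect of defactinib on resting cells cannot be read from these data. GM-CSF cultures of bone marrow are known to hold dendritic-like cells beside macrophages, and the exons lost in the IRF5 KO allele and the age of the mice are not given in the labels.

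Notch signalling passes between touching cells. A ligand of the Jagged or Delta-like family on a neighbouring cell binds a Notch receptor, which is cut first by an ADAM protease and then by gamma-secretase, and the freed intracellular part enters the nucleus. There it joins Rbpj, the DNA-binding protein of the pathway, and a Mastermind-like coactivator, and genes of the Hes and Hey families of repressors are classical targets; without the receptor fragment, Rbpj is bound by corepressors. In macrophages, Toll-like receptor ligands such as LPS are known to induce Jag1 and Delta-like ligands.

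The 6 genes are protein coding, and the positions in the table (mm10) were identical to those in the GENCODE annotation. Jag1 (ENSMUSG00000027276), a Notch ligand, lies at chr2:137081456-137116644 on the minus strand. The receptor genes Notch1 (ENSMUSG00000026923) and Notch2 (ENSMUSG00000027878) lie at chr2:26457903-26516663 on the minus strand and chr3:98013527-98150361 on the plus strand. Rbpj (ENSMUSG00000039191) lies at chr5:53466152-53657362 on the plus strand. The target genes Hes1 (ENSMUSG00000022528) and Hey1 (ENSMUSG00000040289) lie at chr16:30064384-30067796 on the plus strand and chr3:8663359-8667256 on the minus strand. Counts cover all exons of a gene together.

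Promoter windows of 300 bases, 250 before and 50 after the RefSeq start on GRCm38.p6, were found for 4 of the 6 genes. Those of Notch1 and Rbpj lie inside the gene spans given above, away from where these spans begin on the strand of the gene. They are shown for Jag1, Notch1 and Notch2, whose levels were lower with defactinib in WT cells, and for Rbpj, whose windows hold the motif of its own protein. Each is printed 5′ to 3′ on the strand of the gene, with matches to the motifs below in capitals.
Jag1, chr2:137116471-137116770, minus strand: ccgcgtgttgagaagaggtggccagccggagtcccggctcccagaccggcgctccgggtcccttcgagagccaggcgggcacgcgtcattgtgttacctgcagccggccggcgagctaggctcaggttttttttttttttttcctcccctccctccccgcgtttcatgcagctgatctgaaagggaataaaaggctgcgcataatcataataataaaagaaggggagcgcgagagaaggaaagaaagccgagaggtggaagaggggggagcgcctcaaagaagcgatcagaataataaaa
Notch1, chr2:26503773-26504072, minus strand: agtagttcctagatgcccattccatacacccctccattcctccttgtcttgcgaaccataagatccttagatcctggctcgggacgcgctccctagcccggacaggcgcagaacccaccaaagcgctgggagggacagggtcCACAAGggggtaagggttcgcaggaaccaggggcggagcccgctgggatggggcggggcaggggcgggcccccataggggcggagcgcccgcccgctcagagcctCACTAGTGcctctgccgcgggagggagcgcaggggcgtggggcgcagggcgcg
Notch2, chr3:98013288-98013587, plus strand: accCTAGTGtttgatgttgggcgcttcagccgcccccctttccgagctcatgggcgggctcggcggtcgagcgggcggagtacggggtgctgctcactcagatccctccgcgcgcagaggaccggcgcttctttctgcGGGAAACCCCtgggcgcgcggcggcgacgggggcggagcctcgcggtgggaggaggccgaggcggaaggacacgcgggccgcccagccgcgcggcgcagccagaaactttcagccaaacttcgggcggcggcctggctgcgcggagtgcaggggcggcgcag
Rbpj, chr5:53590096-53590395, plus strand: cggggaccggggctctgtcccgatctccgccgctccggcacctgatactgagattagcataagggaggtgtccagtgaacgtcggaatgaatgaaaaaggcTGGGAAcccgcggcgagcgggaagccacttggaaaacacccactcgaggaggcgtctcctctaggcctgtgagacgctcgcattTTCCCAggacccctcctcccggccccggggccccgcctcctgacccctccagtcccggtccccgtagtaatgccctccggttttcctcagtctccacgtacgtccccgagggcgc

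5 motifs were searched on both strands: the RBPJ core TGGGAA, a form of the NF-kB motif (GGGA and CC with 4 bases of any kind between), a form of the IRF motif (GAAA and GAAA with 2 bases of any kind between), the E-box CACGTG and the N-box CACNAG, the last a form bound by Hes proteins. The Jag1 window held no match to any of them. The Notch2 window held the NF-kB form 112 bases before the start and an N-box 247 bases before it. The Notch1 window held 3 N-box matches, of which those 3 and 1 bases before the start overlap. For Rbpj 2 overlapping windows were found, of which the first is shown and held the RBPJ core 149 and 65 bases before its start. The second, at chr5:53590236-53590535, held the RBPJ core 205 bases and the NF-kB form 95 bases before its start. Over all 32851 RefSeq promoter windows of the same length, 25.6% held the RBPJ core, 20.7% the NF-kB form, 3.44% the IRF form, 7.15% the E-box and 42.5% the N-box, so these matches are common letters and are given as a description only.

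The libraries held 39282181 to 61949143 counted read pairs, with a median of 45317217. Levels are given as CPM, read pairs of a gene per 1e6 counted pairs, scaled by TMM, and comparisons between genes as CPM per kilobase of exon (RPKM). The 8 macrophage markers, among them Adgre1, Cd68 and Csf1r, summed to 17873 to 18836 CPM in IRF5 KO LPS defactinib libraries and to 9566 to 15278 CPM in the others, the 5 dendritic cell markers to 1930 to 2936 CPM, and the 6 T, B and NK cell markers to at most 0.921 CPM. The 7 mast cell and basophil markers summed to 43.2 to 73.2 CPM in IRF5 KO libraries against 8.06 to 15.7 CPM in WT libraries, mostly from Gata2 and Kit. Of these 7 markers, 4 were never above 1 CPM in any library, so the sum does not show that such cells were present. In bulk RNA, fewer cells of a type and less RNA per cell cannot be told apart, and the part of cell composition in the results below was not tested. Irf5, the targeted gene, was at 587, 606 and 650 CPM in unstimulated WT libraries, 434, 475 and 443 CPM in WT LPS DMSO, and 213, 234 and 379 CPM in WT LPS defactinib. In libraries labelled IRF5 KO it was at 335, 397 and 364 CPM unstimulated, 435, 431 and 345 CPM with LPS and DMSO, and 364, 392 and 353 CPM with LPS and defactinib. Counts over the whole gene do not show which exons are present, so they do not check the genotype labels.

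Of the 3 IRF5 KO LPS DMSO libraries, replicate 3 stood apart. The chi-square statistic of the counts, averaged over genes, was 2.33 between replicates 1 and 2 of this group but 441 and 425 between each of them and replicate 3. Other pairs of replicates had values of 3.82 to 183, the highest in WT LPS defactinib. On log2 CPM, replicate 3 correlated at r = 0.981 with the mean of unstimulated IRF5 KO. Its r with the mean of IRF5 KO LPS defactinib was 0.945. Replicates 1 and 2 each correlated at 0.927 with the first of these means and at 0.989 with the second. With the unstimulated WT mean, r was 0.962 for replicate 3 and 0.910 for replicates 1 and 2. With the WT LPS DMSO mean it was 0.959 for replicate 3 and 0.901 for the others. With the WT LPS defactinib mean it was 0.920 for replicate 3, and 0.963 and 0.962 for replicates 1 and 2. Whether any of the 3 libraries was mislabelled cannot be told from the labels. Ifit1, an interferon-induced gene, was at 574 CPM in replicate 3 and at 11.1 and 10.8 CPM in replicates 1 and 2, and Il6, a cytokine gene, was at 382 CPM against 28.3 and 27.9. Tests and differences of the 6 genes that use this group, and counts of called genes, are therefore given below with and without replicate 3.

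**Figure D1:**
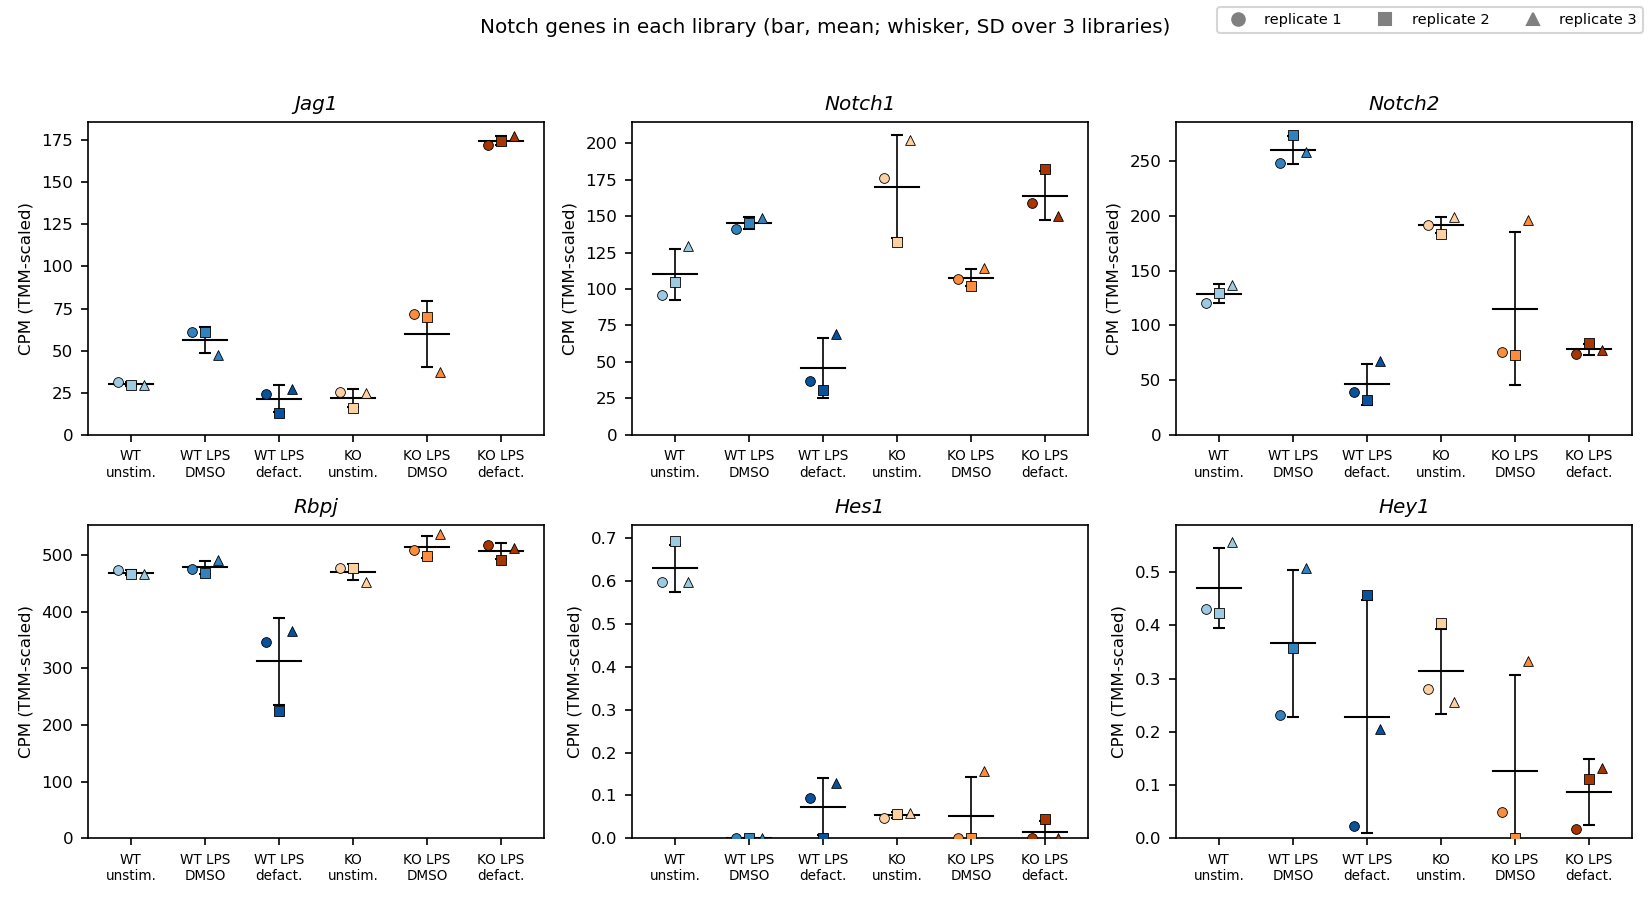
Levels of the 6 Notch genes in each library, as TMM-scaled CPM on linear axes from 0, with the mean (bar) and SD (whisker) over 3 libraries per group. Jag1 was highest in the 3 IRF5 KO LPS defactinib libraries (172 to 178 CPM), Notch2 in WT LPS DMSO (248 to 273 CPM), and Hes1 and Hey1 stayed below 1 CPM in every library.

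Jag1 was the ligand gene with the highest level per length, at 2.18 to 30.5 RPKM over the 18 libraries against at most 4.41 RPKM for Dll1 and 2.64 RPKM for Dll4. In WT cells its level was higher after LPS and lower again with defactinib. In IRF5 KO cells it was higher after LPS and higher still with defactinib.

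In WT cells, Jag1 was at 31.4, 29.4 and 29.4 CPM unstimulated, at 61.1, 61.0 and 47.7 CPM after LPS with DMSO, and at 24.4, 12.7 and 27.5 CPM after LPS with defactinib. Every LPS DMSO library was above every other WT library, and every defactinib library was below every unstimulated one. In edgeR's quasi-likelihood test, with p adjusted over 15663 genes by the Benjamini-Hochberg method, the log2 fold change with LPS was 0.91 (SE 0.27, adjusted p = 0.0115). Because a gene was called at an adjusted p below 0.05 together with a fold change above 2, Jag1 was not called here. It was called without WT LPS DMSO replicate 3, at 1.02 (edgeR adjusted p = 0.0122), and when libraries were scaled by their size alone the value was 0.53 (edgeR adjusted p = 0.0733). With defactinib after LPS, Jag1 fell by 1.39 on the log2 scale (SE 0.27, edgeR adjusted p = 0.000475). It remained called without any single library, at -1.60 to -1.12. LPS with defactinib against unstimulated cells gave -0.48 (SE 0.27, edgeR adjusted p = 0.138).

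Among knockout libraries, Jag1 was at 25.1, 16.01 and 24.7 CPM unstimulated, at 71.95, 70.1 and 37.0 CPM after LPS with DMSO, and at 172, 174 and 178 CPM after LPS with defactinib. The 3 groups did not overlap. The lowest of the LPS DMSO values was that of replicate 3. As a description, the log2 difference with LPS was 1.44 (SE 0.27), and 1.69 without replicate 3. The log2 difference with defactinib after LPS, by which the genes were chosen, was 1.55 (SE 0.27), and 1.30 without replicate 3. Between the same 2 groups, LPS DMSO and LPS defactinib, the summed macrophage markers went from 9610 to 12226 CPM to 17873 to 18836 CPM, and the 10 LPS response genes listed, among them Tnf, Il6 and Ifit1, from 5729 to 7511 CPM to 10231 to 10523 CPM. In WT cells the LPS response genes summed to 15525 to 18649 CPM with DMSO and to 1661 to 5300 CPM with defactinib, and the macrophage markers to 9566 to 10096 CPM and to 10771 to 15278 CPM. The part of these shifts in the Jag1 levels was not tested. Against unstimulated cells, LPS with defactinib gave a log2 difference of 2.99 (SE 0.28).

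Between the genotypes, unstimulated Jag1 was 0.45 higher in WT on the log2 scale (SE 0.27, edgeR adjusted p = 0.312) and was not called, although the libraries did not overlap. After LPS with DMSO the 2 genotypes overlapped, with a WT minus IRF5 KO log2 difference of -0.08 (SE 0.26), and -0.33 without replicate 3. After LPS with defactinib this difference was -3.02 (SE 0.28), the WT mean being 21.5 ± 7.78 CPM (SD, n = 3) and the knockout mean 175 ± 2.68 CPM (SD, n = 3). In order of their means, WT LPS defactinib and unstimulated IRF5 KO came lowest and overlapped. Unstimulated WT followed, then WT LPS DMSO and IRF5 KO LPS DMSO, which overlapped, and IRF5 KO LPS defactinib was highest and overlapped none. Jag1 was chosen for being higher with defactinib in IRF5 KO cells, so the place of that last group was partly built in.

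**Figure D2:**
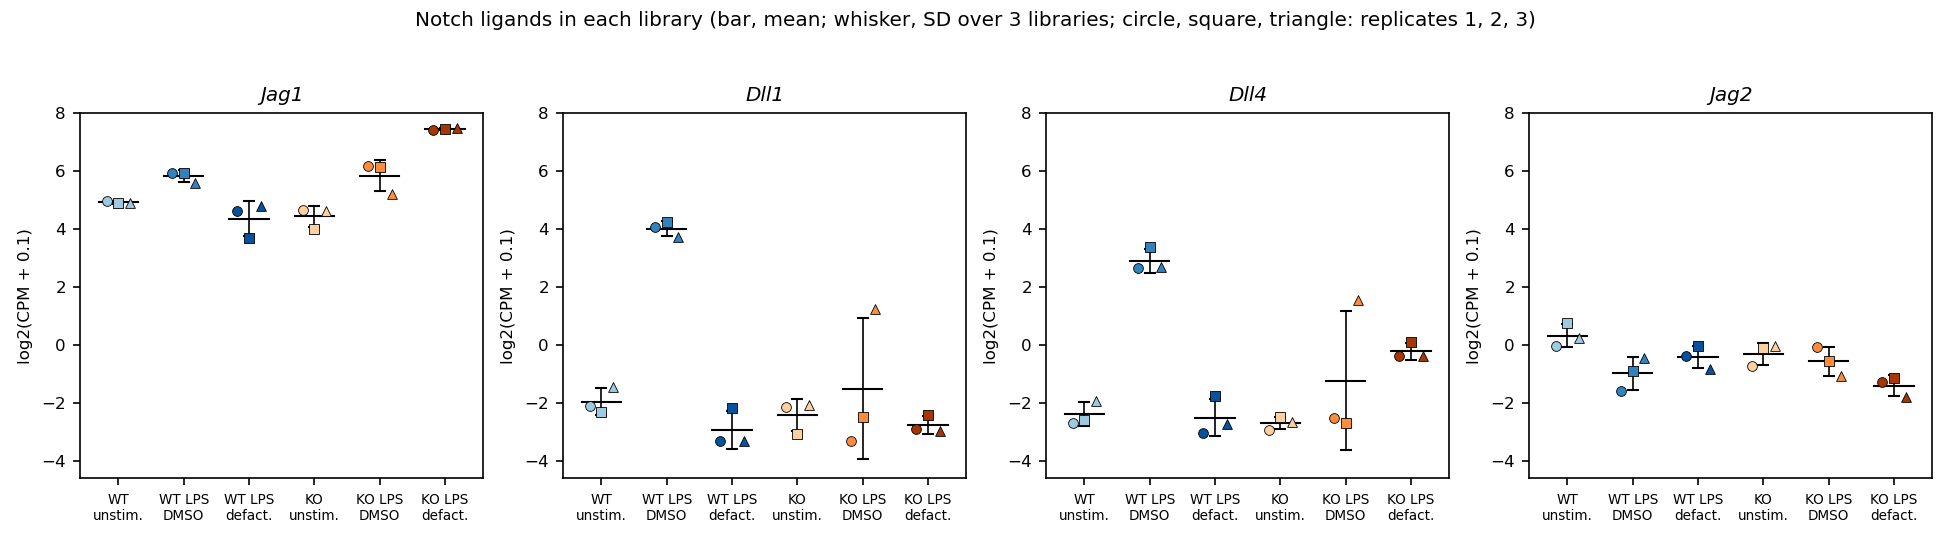
Levels of 4 Notch ligand genes in each library as log2(CPM + 0.1), with the mean and SD over 3 libraries per group. Dll1 and Dll4 were high in the 3 WT LPS DMSO libraries and, among IRF5 KO LPS DMSO libraries, raised in replicate 3 only, whereas Jag1 was highest in IRF5 KO LPS defactinib.

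The Delta-like ligand genes had another pattern. Dll1 was at 16.7, 18.6 and 13.2 CPM in WT LPS DMSO. It was at 0.268 CPM or below in every library of the other groups except IRF5 KO LPS DMSO replicate 3, at 2.29 CPM. Dll4, best known for its role in endothelial and T cell development, was at 6.17, 10.2 and 6.28 CPM in WT LPS DMSO, at 0.0727, 0.053 and 2.80 CPM in IRF5 KO LPS DMSO, and at 0.662, 0.985 and 0.664 CPM in IRF5 KO LPS defactinib.

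Dll4 rose with LPS in WT cells, at a log2 fold change of 6.28 (SE 1.11, edgeR adjusted p = 0.000303), and with defactinib its log2 fold change was -6.36 (SE 1.14, edgeR adjusted p = 0.000277). Dll1 reached the filter, 0.221 CPM in 3 libraries, only through the WT LPS DMSO libraries, where it was high, so its differences from that group are a description. They were 6.60 with LPS (SE 1.11) and -8.55 with defactinib (SE 1.33) on the log2 scale, from summed counts of 26 in unstimulated WT, 1967 in WT LPS DMSO and 5 in WT LPS defactinib. In IRF5 KO cells, both genes were called higher with LPS, Dll1 at 3.08 (SE 1.15, edgeR adjusted p = 0.0475) and Dll4 at 4.14 (SE 1.17, edgeR adjusted p = 0.015). Without replicate 3 the values were -1.27 (edgeR adjusted p = 0.358) and 0.21 (edgeR adjusted p = 0.859). Kdr, 1 of the 7 endothelial and stromal markers listed, was higher in WT LPS DMSO, at 14.1 to 27.8 CPM against at most 7.26 CPM elsewhere. All 7 markers together, Kdr included, summed to 17.6 to 30.8 CPM in WT LPS DMSO. Their sum was 3.28 to 3.74 CPM in unstimulated WT and at most 10.5 CPM in any other library outside WT LPS DMSO. Of the 7 endothelial and stromal markers listed, 4 were never above 1 CPM, among them Tek, at 0 in every library. The part of other cells in the Delta-like levels was not tested.

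The minor ligand genes moved the other way in WT cells. Jag2, the second Jagged ligand, fell by 1.45 with LPS on the log2 scale (SE 0.42, edgeR adjusted p = 0.0104). Dlk2, a Delta-like protein without the receptor-activating domain, fell by 2.32 with LPS (SE 0.46, edgeR adjusted p = 0.000691) and rose by 1.72 with defactinib (SE 0.46, edgeR adjusted p = 0.00519). Neither gene was above 1.59 CPM in any library, Dll3 was below the filter, and Dlk1 had no count at all.

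Notch2 was the receptor gene that reached the highest level per length, 25.4 RPKM against at most 14.2 RPKM for Notch1. The order was the other way in IRF5 KO LPS defactinib, where mean levels were 7.25 RPKM for Notch2 and 11.5 RPKM for Notch1, and in replicates 1 and 2 of IRF5 KO LPS DMSO, with 7.06 and 6.80 RPKM against 7.50 and 7.19 RPKM. Notch3 and Notch4 were at most at 0.289 and 0.186 CPM and could not be tested. In WT cells both main receptor genes were lower with defactinib, below even the unstimulated level. In IRF5 KO cells the receptors parted, Notch2 being lower after LPS with defactinib than in unstimulated cells while Notch1 was not.

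In WT cells, Notch2 was at 120, 130 and 137 CPM unstimulated, at 248, 273 and 259 CPM after LPS with DMSO, and at 39.2, 32.1 and 67.4 CPM after LPS with defactinib. The 3 groups did not overlap, and the highest defactinib value was that of replicate 3. With LPS, Notch2 rose by 1.01 on the log2 scale (SE 0.31, edgeR adjusted p = 0.0155), just past the fold threshold. This call was lost with scaling by library size alone, at 0.63 (edgeR adjusted p = 0.121), a scaling under which the median of all genes shifted to -0.38. It was also lost with no filter on low counts, at 0.98 (edgeR adjusted p = 0.0575), without unstimulated WT replicate 1, at 0.96 (edgeR adjusted p = 0.0556), and without WT LPS DMSO replicate 2, at 0.97 (edgeR adjusted p = 0.0444). With defactinib, Notch2 fell by 2.49 (SE 0.32, edgeR adjusted p = 1.64e-05), and by leaving out single libraries the value ranged from -2.85 to -2.28. Against unstimulated cells, LPS with defactinib gave -1.48 (SE 0.31, edgeR adjusted p = 0.00137).

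Among knockout libraries, Notch2 was at 192, 184 and 199 CPM unstimulated, at 76.1, 73.4 and 196 CPM after LPS with DMSO, and at 73.6, 83.6 and 77.3 CPM after LPS with defactinib. Replicate 3 of the LPS DMSO group lay among the unstimulated libraries, and replicates 1 and 2 among the defactinib libraries. The log2 fold change with LPS was accordingly -0.73 and not called (SE 0.31, edgeR adjusted p = 0.072), but -1.36 and called without replicate 3 (edgeR adjusted p = 3.89e-05). The log2 difference with defactinib, given as a description, was -0.56 (SE 0.31) with replicate 3 and 0.07 without it. LPS with defactinib against unstimulated cells does not use this group, and there Notch2 fell by 1.29 (SE 0.31, edgeR adjusted p = 0.00306).

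Between the genotypes, Notch2 after LPS with DMSO was 1.17 higher in WT on the log2 scale (SE 0.31, edgeR adjusted p = 0.00567). Without replicate 3 this was 1.80 (edgeR adjusted p = 2.01e-06). Leaving out replicate 1 or 2 of the same group gave 0.93 or 0.92, under the fold threshold. The call was also lost when only these 2 groups were fitted, at 1.13 (edgeR adjusted p = 0.0739), and with scaling by library size alone, at 0.88 (edgeR adjusted p = 0.0355). The difference between the genotypes in the LPS effect, tested as an interaction, was 1.74 for Notch2 (SE 0.44, edgeR adjusted p = 0.0146), and 2.37 without replicate 3 (edgeR adjusted p = 4.12e-06). Unstimulated Notch2 did not pass the test between the genotypes, at -0.57 (SE 0.31, edgeR adjusted p = 0.267), nor after LPS with defactinib, at -0.76 (SE 0.31, edgeR adjusted p = 0.0682). Without WT LPS defactinib replicate 3 the latter was called, at -1.11 (edgeR adjusted p = 0.0138).

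In WT cells, Notch1 was at 96.02, 105 and 130 CPM unstimulated, at 141, 145 and 149 CPM after LPS with DMSO, and at 36.8, 30.9 and 69.4 CPM after LPS with defactinib. The groups did not overlap, but the difference with LPS, at 0.40 (SE 0.23, edgeR adjusted p = 0.182), did not pass the test. With defactinib, Notch1 fell by 1.67 on the log2 scale (SE 0.23, edgeR adjusted p = 3.03e-05). Against unstimulated cells, LPS with defactinib gave -1.27 (SE 0.23, edgeR adjusted p = 0.00045).

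Among knockout libraries, Notch1 was at 176, 132 and 202 CPM unstimulated, at 107, 102 and 114 CPM after LPS with DMSO, and at 159, 183 and 150 CPM after LPS with defactinib. The LPS DMSO libraries were the lowest of the 9, and here replicate 3 was close to the other two. The log2 fold change with LPS was -0.66 (SE 0.23, edgeR adjusted p = 0.0352), past the p threshold but not the fold threshold, and -0.70 without replicate 3 (edgeR adjusted p = 0.0359). The log2 difference with defactinib, as a description, was 0.61 (SE 0.23), and 0.65 without replicate 3. LPS with defactinib against unstimulated cells gave -0.05 (SE 0.23, edgeR adjusted p = 0.863).

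After LPS with defactinib, Notch1 was lower in WT than in knockout cells, at a WT minus IRF5 KO log2 difference of -1.84 (SE 0.24, edgeR adjusted p = 1.99e-05). The same difference was -0.63 in unstimulated cells (SE 0.23, edgeR adjusted p = 0.0809) and 0.43 after LPS with DMSO (SE 0.23, edgeR adjusted p = 0.127), neither called; the latter was 0.47 without replicate 3 (edgeR adjusted p = 0.133). The interaction of genotype and LPS was 1.06 (SE 0.32, edgeR adjusted p = 0.0353). It was lost in 10 of the 18 fits without a library, with scaling by library size alone, at 0.91 (edgeR adjusted p = 0.0515), and with no filter, at 1.06 (edgeR adjusted p = 0.0726), and was 1.10 without IRF5 KO LPS DMSO replicate 3 (edgeR adjusted p = 0.0206).

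Rbpj had the highest level of the 6 genes per length, at 36.8 RPKM in unstimulated WT cells against 11.97 RPKM for Notch2, and it varied least. It was at 474, 467 and 466 CPM in unstimulated WT, 475, 469 and 490 CPM in WT LPS DMSO, and 347, 224 and 366 CPM in WT LPS defactinib. In IRF5 KO cells it was at 477, 478 and 453 CPM unstimulated, 509, 497 and 537 CPM with LPS and DMSO, and 518, 492 and 512 CPM with LPS and defactinib. The 3 WT LPS defactinib libraries were the lowest of the 18, and the other 15 lay between 453 and 537 CPM.

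With defactinib in WT cells, the log2 fold change of Rbpj was -0.62 (SE 0.13, edgeR adjusted p = 0.000815), past the p threshold but not the fold threshold. The WT minus IRF5 KO log2 difference after LPS with defactinib was -0.70 (SE 0.13, edgeR adjusted p = 0.000498). With LPS and DMSO, the value was 0.03 in WT (SE 0.13, edgeR adjusted p = 0.887) and 0.13 in IRF5 KO (SE 0.13, edgeR adjusted p = 0.425). The latter was 0.10 without replicate 3 (edgeR adjusted p = 0.553). With scaling by library size alone the 2 values became -0.35 (edgeR adjusted p = 0.0328) and -0.10, beside median shifts of all genes of -0.38 and -0.23. Rbpj-ps3, a copy of the gene, held 95839 counts against 388790 for Rbpj, or 24.7% of its total. Reads that map to several places were not counted. How many Rbpj reads were dropped or placed on the copy was not tested, so the Rbpj level is uncertain.

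The target genes were near the limit of detection. Hes1, the best known target of Notch, was at 0.599, 0.693 and 0.598 CPM in the unstimulated WT libraries and at 0.157 CPM or below in the other 15. Its summed counts were 102 in unstimulated WT, 0 in WT LPS DMSO, 9 in WT LPS defactinib, 9 in unstimulated IRF5 KO, 8 in IRF5 KO LPS DMSO and 2 in IRF5 KO LPS defactinib. Hes1 entered the test only through the unstimulated WT libraries, so a difference from them was built into its selection and its tests support nothing. As a description, with 3 counts set as a floor for WT LPS DMSO, the summed counts put unstimulated WT 25.7-fold above that floor. The spread between libraries does not enter this value, and it carries no test. The 8 counts of IRF5 KO LPS DMSO came from replicate 3, replicates 1 and 2 being at 0.

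Hey1, a second target, was at 0.431, 0.423 and 0.557 CPM in unstimulated WT, at 0.232, 0.358 and 0.508 CPM in WT LPS DMSO, and at 0.0233, 0.457 and 0.206 CPM in WT LPS defactinib. In IRF5 KO cells it was at 0.280, 0.404 and 0.256 CPM unstimulated, at 0.0485, 0 and 0.333 CPM after LPS with DMSO, and at 0.0174, 0.112 and 0.133 CPM after LPS with defactinib. Neighbouring groups in the order of their means overlapped throughout. It was called in no comparison with all 18 libraries. Leaving out replicate 3 of the knockout LPS DMSO group, Hey1 was called lower with LPS in IRF5 KO cells, at -3.50 (edgeR adjusted p = 0.0108), against -1.18 with it (SE 0.86, edgeR adjusted p = 0.285), and higher in WT than in the knockout after LPS, at 3.72 (edgeR adjusted p = 0.00638), against 1.40 with it (SE 0.87, edgeR adjusted p = 0.186). Without that library it was also called lower after LPS with defactinib than in unstimulated IRF5 KO cells, at -1.91 (edgeR adjusted p = 0.033), against -1.90 with it (SE 0.92, edgeR adjusted p = 0.0946). Of the 19 Hey1 counts in the LPS DMSO group, 17 were in replicate 3, so the first and second of these calls rested on 2 counts there, and the last on 11 counts in the defactinib group, against 52 in unstimulated IRF5 KO.

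Hes7, another member of the family, was at most at 0.0206 CPM in unstimulated WT and at 0.280 to 0.441 CPM in WT LPS DMSO. It reached the filter only through the latter libraries, so its log2 difference of 4.62 (SE 1.12) is a description. Hes5, Hey2, Heyl, Nrarp and Dtx1, the remaining targets on the list, were at most at 0.192 CPM in any library and were not tested. None of the 8 target genes listed was above 1 CPM in any library.

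**Figure D3:**
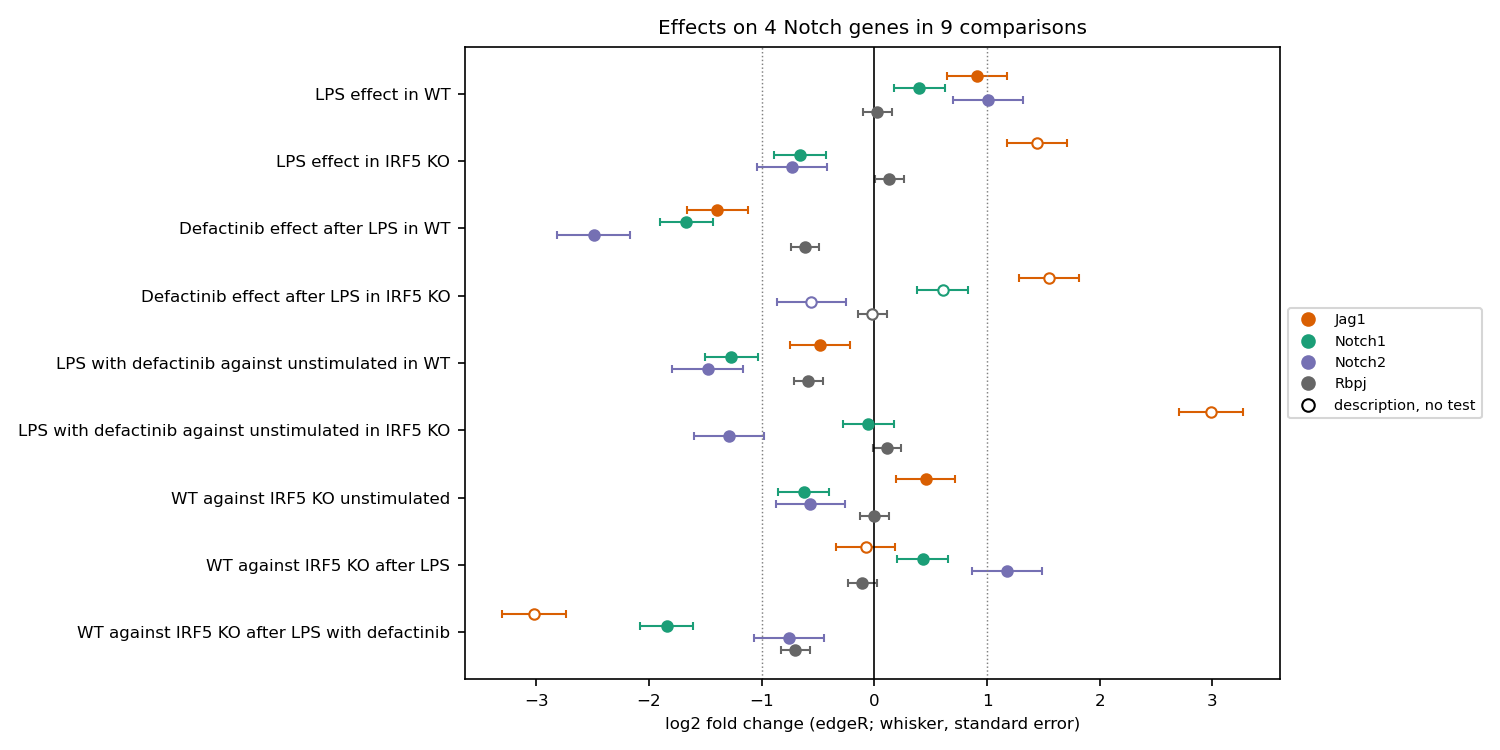
Log2 fold changes (points) with standard errors (whiskers) from edgeR for Jag1, Notch1, Notch2 and Rbpj in 9 comparisons, where open points are descriptions without a test and dotted lines mark a fold change of 2. With defactinib after LPS in WT cells the 4 values ran from -2.49 to -0.62, and in IRF5 KO cells from -0.56 to 1.55 (0.013 to 1.30 without replicate 3 of IRF5 KO LPS DMSO).

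Set beside all genes tested, calls among the 6 genes were as follows, with Hes1 left out wherever unstimulated WT libraries enter. With LPS in WT cells, where 21.3% of all genes were called, Notch2 was called higher. With LPS in IRF5 KO cells, where 13.3% were called, none of the 5 genes with a test was; without replicate 3, where 26.2% were, Notch2 and Hey1 were called lower. With defactinib in WT cells, where 29.1% were called and 18.6% were called lower, Jag1, Notch1 and Notch2 were called, each lower. In LPS with defactinib against unstimulated cells, Notch1 and Notch2 were called lower in WT, where 24.9% of genes were called, and Notch2 in IRF5 KO, where 24% were. Between WT and IRF5 KO, no member was called in unstimulated cells (7.31% of genes), Notch2 was after LPS with DMSO (25.8%) and Notch1 after LPS with defactinib (17.3%). Without replicate 3, Notch2 and Hey1 were called after LPS with DMSO, where 34.5% of genes were. In the interaction of genotype and LPS, Notch1 and Notch2 were called, where 9.83% of genes were, and again without replicate 3, where 23.6% were. In the contrast by which the genes were chosen, defactinib in IRF5 KO cells, 0.919% of genes were called. The comparisons with and without defactinib share their LPS DMSO libraries, and those with LPS share their unstimulated libraries, so their values are not independent of each other.

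The other genes of the pathway were taken from a list of 58 genes that includes the 6, in 8 roles, of which 49 passed the filter. Dll1, Hes1 and Hes7 reached it only through 1 group, so beside each count over the 49 stands the count without them where that group enters, and without Jag1 where the choice of genes used it. With defactinib after LPS in WT cells, 22 of the 49 were called, 7 higher and 15 lower (21 of 47, or 44.7%, without Dll1 and Hes7). Of all genes, 29.1% were called. The median log2 fold change was -0.19 against 0.09 over all genes. Among the largest decreases beside the ligands and Notch2 were Furin, Dtx3l, Tle3, Dtx2 and Maml2. Furin, the protease that cuts Notch receptors during their maturation, was at 548, 684 and 725 CPM in WT LPS DMSO and at 63.0, 75.3 and 72.4 CPM in WT LPS defactinib, a fall by 3.22 on the log2 scale (SE 0.24, edgeR adjusted p = 6.2e-08). Maml1 and Maml2, coactivators in the Rbpj complex, fell by 1.20 (SE 0.20, edgeR adjusted p = 0.000165) and 1.77 (SE 0.25, edgeR adjusted p = 3.06e-05). Among the 7 called higher were Mfng and Rfng, which modify the sugars of Notch receptors, and Neurl1a, Neurl1b and Mib2, ubiquitin ligases of the families that act on ligands. The gamma-secretase subunit gene Aph1b fell by 1.24 (SE 0.17, edgeR adjusted p = 2.9e-05), and with Furin it made up the 2 calls among the 10 genes of receptor cleavage.

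With LPS in WT cells, 18 of the 49 were called, 9 in each direction. Without Dll1, Hes1 and Hes7, 15 of 46 (32.6%) were, 7 higher and 8 lower, against 21.3% of all genes. The median was 0.03 against -0.0045 over all genes. With scaling by library size alone, 16 were called, 6 higher and 10 lower (13 of 46, 4 and 9). That was 28.3% of the 46, against 26.4% of all genes. Poglut1, which adds glucose to Notch receptors, rose by 2.33 on the log2 scale (SE 0.14, edgeR adjusted p = 9.72e-09), and Furin by 1.43 (SE 0.23, edgeR adjusted p = 9.82e-05). Lfng and Mfng, both Fringe glycosyltransferases, fell by 1.84 (SE 0.18, edgeR adjusted p = 9.73e-07) and 1.75 (SE 0.21, edgeR adjusted p = 6.41e-06). Neurl1b was at 3.18, 3.26 and 3.36 CPM in unstimulated WT and at 0.116, 0 and 0.102 CPM in WT LPS DMSO, a fitted change of -5.42 (SE 0.77, edgeR adjusted p = 3.83e-05).

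With LPS in IRF5 KO cells, 5 of the 48 genes other than Jag1 were called, 3 higher (Dll1, Dll4 and Neurl1a) and 2 lower (Neurl1b and Numbl). The share was 10.4%, against 13.3% of all genes. Jag1 has no test here and is left out of this count. The median over the 49 was -0.02 against 0.0063 over all genes. Without replicate 3 of the LPS DMSO group, 11 of the 48 were called, against 26.2% of all genes, 2 higher (Dtx3 and Neurl1a) and 9 lower, among which were Notch2, Hey1, Tle3, Dtx2 and Maml2. Tle3, a Groucho-type corepressor, was at 49.2 and 48.0 CPM in replicates 1 and 2 and at 189 CPM in replicate 3, against 108, 117 and 119 CPM in unstimulated IRF5 KO cells. With defactinib after LPS in IRF5 KO cells, and with Jag1 left out, Neurl1b was past both thresholds, and Dll4 was without replicate 3. Nothing is read from these calls, since the genes were chosen on this contrast.

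Between WT and IRF5 KO, 4 of the 49 were called in unstimulated cells, 15 after LPS with DMSO and 11 after LPS with defactinib. Without those genes and Jag1, the counts were 3 of 48, 14 of 46 and 10 of 48, or 6.25%, 30.4% and 20.8%. Of all genes, 7.31%, 25.8% and 17.3% were called. The medians were 0.01, 0.09 and -0.26 against -0.01, -0.05 and 0.02 over all genes. Without IRF5 KO LPS DMSO replicate 3, the count after LPS with DMSO was 20 (18 of 46), against 34.5% of all genes. With scaling by library size alone it was 16, with 7 higher and 9 lower in WT, against 9 and 6 with TMM. In unstimulated cells Furin was 1.64 higher in WT on the log2 scale (SE 0.23, edgeR adjusted p = 0.000119), at 231, 241 and 253 CPM against 74.7, 77.2 and 81.3 CPM. Neurl1a was also called higher in WT, at 1.70 (SE 0.42, edgeR adjusted p = 0.011), and Mfng lower, at -1.22 (SE 0.19, edgeR adjusted p = 0.000421). After LPS with defactinib, Maml1 was at 13.5, 9.09 and 15.4 CPM in WT and at 64.4, 69.4 and 61.0 CPM in IRF5 KO, a log2 difference of -2.36 (SE 0.21, edgeR adjusted p = 4.47e-07). Maml3, Aph1b, Spen and Dtx4 were also called lower in WT there.

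LPS with defactinib against unstimulated cells gave 15 calls in WT, 2 higher and 13 lower (14 of 48 without Hes1), and 13 in IRF5 KO, 6 higher and 7 lower (12 of 48 without Jag1). The shares without these genes were 29.2% and 25%, against 24.9% and 24% of all genes. The medians were -0.44 and -0.08, against 0.04 and 0.0036 over all genes. With scaling by library size alone the IRF5 KO calls were 2 higher and 11 lower, where 29.1% of all genes were called. Maml1 was called lower in WT, at -1.48 (SE 0.21, edgeR adjusted p = 4.69e-05), and higher in IRF5 KO, at 1.02 (SE 0.20, edgeR adjusted p = 0.000803).

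**Figure D4:**
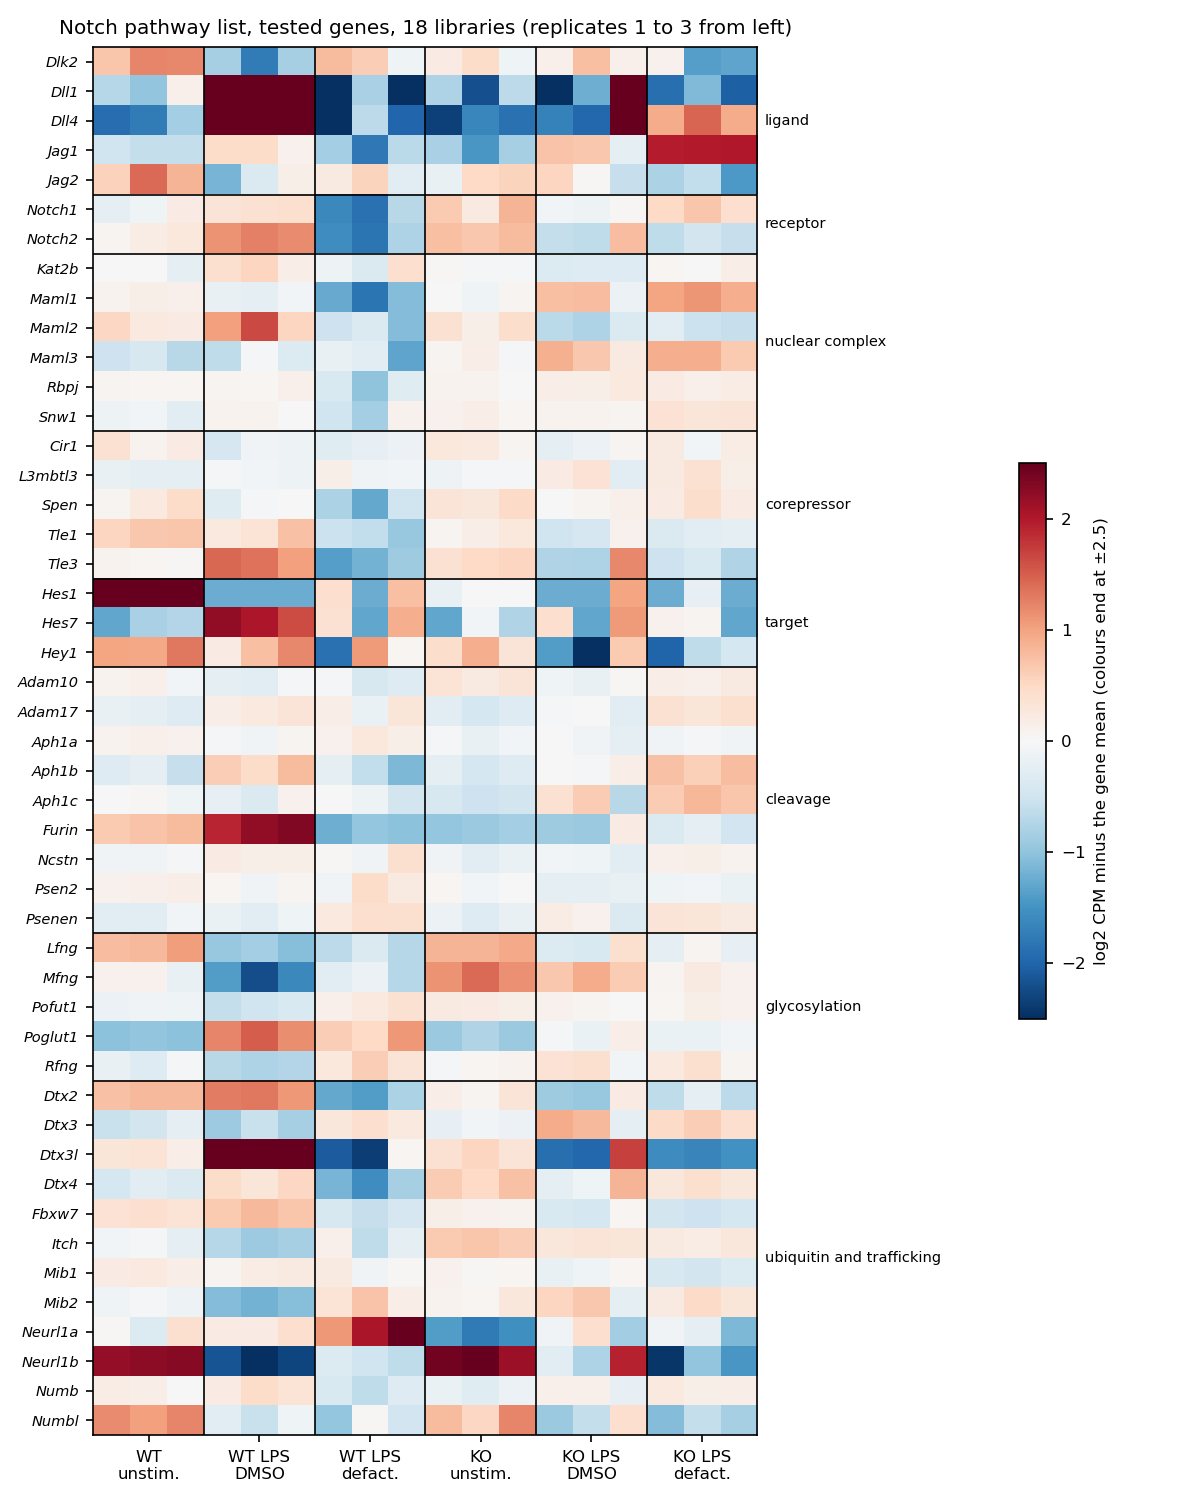
Log2 CPM minus the mean of the gene over all 18 libraries for 47 of the 49 tested genes of the Notch list, grouped by role, with colours ending at ±2.5. Replicate 3 of IRF5 KO LPS DMSO differs in colour from replicates 1 and 2 for Notch2, Tle3, Dll1, Dll4, Dtx3l and Neurl1b, and WT LPS DMSO has the highest levels of Dll1, Dll4 and Furin.

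The genes whose log2 CPM followed that of each member most closely over the 18 libraries were sought among the 8459 tested genes whose log2 CPM averaged 3 or more. For Jag1 they were Rybp (r = 0.967), Prdm1 (0.955), Med6 (0.953), Ccdc59 (0.950) and Ccnk (0.949). Prdm1, which encodes the repressor Blimp-1, had mean log2 CPM values of 4.35, 5.45 and 2.94 in WT and 3.54, 5.16 and 6.64 in IRF5 KO, for unstimulated, LPS DMSO and LPS defactinib in turn. Its order over the groups was thus lowest in WT LPS defactinib and highest in IRF5 KO LPS defactinib, as for Jag1. The closest genes were Jade2 (0.987) and Tent5a (0.976) for Notch2, and Puf60 (0.942) and Ptk2b (0.934) for Notch1. Ptk2b encodes PYK2, and its mean log2 CPM ran from 6.77 in WT LPS defactinib to 7.48 in unstimulated IRF5 KO. For Rbpj they were its copy Rbpj-ps3 (0.972) and Atl2 (0.966), for Hes1 Elk1 (0.929) and Afdn (0.904), and for Hey1 Tradd (0.864) and Srebf1 (0.861). Without replicate 3 of IRF5 KO LPS DMSO, r for these 15 genes ranged from 0.862 to 0.988. The 18 points share 6 group means, so these correlations largely restate differences between groups and carry no test.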

How the data were processed

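The authors aligned the reads to mm10 with STAR and counted read pairs per gene with featureCounts 1.6.3, in reverse-stranded mode (-s 2) and with a minimum mapping quality of 255, which drops reads that map to several places. The deposited table holds these raw counts for 50600 gene IDs, of which 50376 matched a symbol. Columns were matched to libraries by genotype, treatment, time and replicate.

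Counts were tested with edgeR 4.0.16 in R 4.3.3 (limma 3.58.1). Libraries were scaled by TMM, genes were filtered with filterByExpr over the 6 groups (15663 kept), and 1 mean per group was fitted to all 18 libraries, with 12 residual degrees of freedom and robust quasi-likelihood dispersions. A gene was called at a Benjamini-Hochberg adjusted p below 0.05, over all genes tested, and a fold change above 2. Standard errors (SE) came from dividing each absolute change by the root of the F statistic. CPM used TMM-scaled library sizes, and log2 CPM a prior count of 2. The test was checked on simulated counts. The labels call the 3 libraries of a group replicates, and p-values measure the spread between them only.

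Alternatives were DESeq2 size factors, scaling by library size alone, no filter, a filter of 5 CPM in 3 libraries, DESeq2 1.42.0, limma-voom, a replicate block, only the groups compared, no fold threshold, and leaving out each library. The replicate numbers did not pair the libraries: over 45 pairs of the same number, deviations from the group means had a median correlation of 0.0046, with 4 above 0.1.

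The 6 genes, the pathway list, the markers and the motifs were chosen with earlier results of these data known. Named were the 6 genes, list genes that were called (the 8 with the largest change per direction), the genes most alike in log2 CPM (5 for Jag1, 2 for each other), Irf5 and markers. In the list, 2 genes enter the counts and are not reported here. The difference between the genotypes in the effect of defactinib was not tested.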

Additional observations from a re-analysis of the deposited data

Results flagged for a closer look

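Some genes responded to LPS differently in the 2 genotypes by the interaction test (WT LPS effect minus IRF5 KO LPS effect, log2, edgeR adjusted over all genes). Of the 6 genes, these were Notch1 at 1.06 (adjusted p = 0.0353) and Notch2 at 1.74 (adjusted p = 0.0146). Without IRF5 KO LPS DMSO replicate 3 they were at 1.10 and 2.37. Of the other list genes, LPS effects were more positive in WT for Maml2 at 1.74, Poglut1 at 1.47, Dtx4 at 1.16 and Dtx2 at 1.08, and at 1.87, 1.57, 1.58 and 1.56 without that replicate. They were more negative in WT for Neurl1b at -3.76, Dlk2 at -2.48, Mfng at -1.27, Mib2 at -1.24 and Dtx3 at -1.08, and at -2.37, -2.59, -1.33, -1.48 and -1.36 without it. Leaving out Dll1, Hes1, Hes7 and Jag1, 12 of 45 list genes passed this test, against 9.83% of all genes, and 19 of 45 without that replicate, against 23.6%.

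For 11 of the 49 list genes (22.4%), every library moved one way with defactinib after LPS in WT and the other way in IRF5 KO, a pattern that 7.92% of all tested genes had; the difference was not tested. Without replicate 3 of IRF5 KO LPS DMSO the shares were 42.9% and 26.6%. Nothing is read from them about the list, since the contrast in IRF5 KO was the one the genes were chosen on. The log2 changes were -1.39 in WT and 1.55 in IRF5 KO for Jag1, and -1.67 and 0.61 for Notch1. Lower in WT and higher in IRF5 KO were also Aph1b (-1.24 and 0.66), Maml1 (-1.20 and 0.49) and Spen (-0.71 and 0.22). Higher in WT and lower in IRF5 KO were Neurl1b (2.60 and -2.57), Dlk2 (1.72 and -1.10), Mfng (1.37 and -0.63) and Itch (0.60 and -0.07). Without replicate 3 the IRF5 KO values were 1.30 for Jag1, 0.65 for Notch1, 0.72 for Aph1b, 0.24 for Maml1, 0.25 for Spen, -1.20 for Neurl1b, -1.19 for Dlk2, -0.69 for Mfng and -0.07 for Itch.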

How the results depend on the processing

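Over the alternatives, 1592 values of the 6 genes in 60 results were recomputed. Of these, 1515 were counted as unchanged, which for values with a test means the same direction and side of the threshold. A call was lost in 25 and gained in 19, 4 moved by more than the spread, and 29 with a test changed sign. Each library was left out for every comparison, also where it belonged to no group compared. Those fits kept every library compared, so the share of unchanged values is partly built in. The defactinib calls of Jag1, Notch1 and Notch2 in WT cells held in every alternative. Among values given without a test, 8 in 5 results changed sign, and these are counted among the 1515 or the 4 above. One was Notch2 with defactinib in IRF5 KO, at -0.56 with all libraries and 0.065 without LPS DMSO replicate 3, where Hes1 went from -1.84 to 2.67 and Hey1 from -0.72 to 1.59. Sign changes among values with a test were these. For Rbpj, WT against IRF5 KO unstimulated became 0.0080 with DESeq2 size factors, 0.0087 with only the groups compared and 0.0080 with DESeq2 (-0.027 to 0.011 without single libraries); the LPS effect in WT became -0.35 with library size alone and -0.0031 with no filter; with library size alone the LPS effect in IRF5 KO became -0.10, and LPS with defactinib against unstimulated IRF5 KO became -0.25. For Hes1, the LPS effect in IRF5 KO became -0.077 with library size alone, -0.96 with limma-voom and -0.079 with the replicate block (-4.40 to 0.65 without single libraries). Notch1 in LPS with defactinib against unstimulated IRF5 KO ranged from -0.21 to 0.087 without single libraries. The causes were not tested.

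Counts of called list genes moved by over 1.5 times in these cases. They are over all list genes tested, so Jag1 enters them, and nothing is read from them about Jag1. With LPS in IRF5 KO, 6 became 0 with only the groups compared, 3 with limma-voom and 2 to 12 without single libraries (3 without unstimulated replicate 1, 2 without unstimulated replicate 3, 3 without LPS DMSO replicate 2 and 12 without LPS DMSO replicate 3). With defactinib in IRF5 KO, 2 became 0 with only the groups compared, 1 with no filter, the 5 CPM filter, limma-voom or the replicate block, and 1 to 3 without single libraries. It was also 1 with Jag1 left out, part of an alternative added after seeing the data that left out Jag1 where it was chosen and Dll1, Hes1 and Hes7 where the group that passed them to the test was compared; under it no other count moved by over 1.5 times. LPS with defactinib against unstimulated IRF5 KO ranged from 8 to 14 without single libraries, with 8 without unstimulated replicate 2, and the interaction from 10 to 20. With the 5 CPM filter, which tested fewer genes, WT against IRF5 KO gave 2 unstimulated and 6 after LPS with defactinib. Without the fold threshold the counts were 29 and 17 with LPS in WT and IRF5 KO, 4 with defactinib in IRF5 KO, 28 and 30 for LPS with defactinib against unstimulated WT and IRF5 KO, and 8, 29 and 25 for WT against IRF5 KO unstimulated, after LPS and after LPS with defactinib. The replicate block changed no other call count by over 1.5 times; the numbers did not pair the libraries. At these depths Hes1 and Hey1, with summed counts of 0 to 102 per group, were too low for small differences to be detectable.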
